A study of Mus musculus with 24 samples.

Results

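The comparison described here is that of SpiB KO with control B cells after 48 h of culture in LPS + IL-4. It rests on 2 libraries of each group, and its members are the genes with at least 0.5 CPM (read counts scaled to library size) in at least 2 of these 4 libraries. Of the 27179 genes in the count table, 11984 were members, and 129 of these passed the filter through the libraries of 1 group only, 6 of them among the genes called below. The genes nearest the filter had a second highest value of 0.514 CPM inside it (Rwdd2a and Scml2) and 0.4996 CPM outside it (2210417K05Rik and 2410066E13Rik).

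B cells came from lymph nodes of mice on a C57BL/6 background, matched for age within an experiment, and RNA was sequenced from sorted CD3- B220+ CD138- cells. The control genotype was Cd23T/+, which carries Cre recombinase on a BAC transgene under the regulatory sequences of Cd23 (the gene Fcer2a). The SpiB KO genotype was Spi1fl/fl Cd23+/+ Spib-/-: Spib was disrupted in the germline, Spi1 (which encodes PU.1) was floxed but intact, and there was no Cre. The groups thus differed in Spib, in the floxed allele and in the transgene, and the parts of these in any result cannot be told apart in this pair alone. The other LPS + IL-4 libraries, 2 each, were of mice lacking PU.1 in B cells (PU.1 cKO, Spi1fl/fl Cd23T/+) and of mice that also lacked SpiB (PU.1 SpiB DKO, from here DKO, genotype Spi1fl/fl Cd23T/+ Spib-/-). These both carry the floxed allele and Cre and differ, by genotype, in Spib alone, so they give the loss of SpiB a comparison that shares no library with the first.

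SpiB and PU.1 are closely related ETS factors that bind the same purine-rich DNA, alone or with the interferon regulatory factors IRF4 and IRF8. LPS acts on B cells through TLR4 and its co-receptors and drives NF-kB, proliferation and a type I interferon response, while IL-4 acts through STAT6 and turns on CD23 and switching to IgG1 and IgE. Interferon-stimulated genes are a set of antiviral genes that interferon receptors switch on through STAT factors and IRF9.

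The 4 libraries held 22757630 and 56388071 counts on genes in control and 60050419 and 22939756 in SpiB KO, so the deep library was replicate 2 in one group and replicate 1 in the other. Replicates correlated at 0.988 in control and 0.990 in SpiB KO (log2 CPM across genes). Reads of Rn45s, a ribosomal RNA precursor, made up 0.490% to 0.575% of the counts in control and 0.867% to 1.79% in SpiB KO, and the part of this difference in the results was not tested. The B cell genes Cd79a and Ms4a1 lay between 467 and 1010 CPM in all 4 libraries, and Cd4 was at 0 in each. Sdc1, which encodes the CD138 that the sort removed, lay at 8.70 and 7.48 CPM in control and 5.73 and 5.23 in SpiB KO.

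Spib transcripts fell to a residual level. In TMM-normalized CPM, the scale of all levels from here unless stated, Spib stood at 276 and 211 in control and at 18.1 and 14.3 in SpiB KO, which was -3.90 as a log2 fold change (SE 0.20, adjusted p 1.75e-05, edgeR's quasi-likelihood test with Benjamini-Hochberg adjustment, as for all adjusted p-values here). Spi1, whose floxed gene is intact in SpiB KO, stood at 72.0 and 60.7 in control and 74.9 and 81.3 in SpiB KO. This difference of 0.24 on the log2 scale (SE 0.10) did not pass the test (adjusted p 0.352). Spic, the third gene of this ETS group, had 0 counts in both control libraries and 8 and 6 counts in the SpiB KO libraries, all below the filter. The list of targeted genes and nearest relatives held Spib, Spi1, Spic and Fcer2a. With the replicate number as a block, 1 of these passed the adjusted p as higher and 2 as lower. Fcer2a, the low affinity IgE receptor CD23 and the gene whose regulatory sequences drive Cre in control, fell from 790.3 and 718 to 472 and 431 (log2 -0.74, SE 0.13, adjusted p 0.0179). Its groups do not overlap, but the call was lost without SpiB KO replicate 2.

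Calls required an adjusted p under 0.15, a change of more than 1.5-fold and, averaged across the libraries of the stage, a log2 RPKM in the deposited tables above 0. In the fit of all 8 LPS + IL-4 libraries, 285 of 12445 genes tested were called (2.29%), all of them members. Of these, 202 were higher in SpiB KO (1.62%) and 83 lower (0.667%). The median size of their change was 0.86 on the log2 scale, and 99 changed by over 2-fold. The libraries of the groups did not overlap for any of the 285, against 40.3% of all members without overlap. The 285 were selected for their change in these same libraries, so the lack of overlap is partly built in. The number of calls rested on single libraries: it was 596 without control replicate 1, 152 without control replicate 2, 189 without SpiB KO replicate 1 and 149 without SpiB KO replicate 2. Without regard to fold and RPKM, 454 genes passed the adjusted p higher in SpiB KO (3.65%) and 184 lower (1.48%). With the replicate number as a block these became 1125 and 646, and the calls became 409, 281 of them among the 285.

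**Figure D1:**
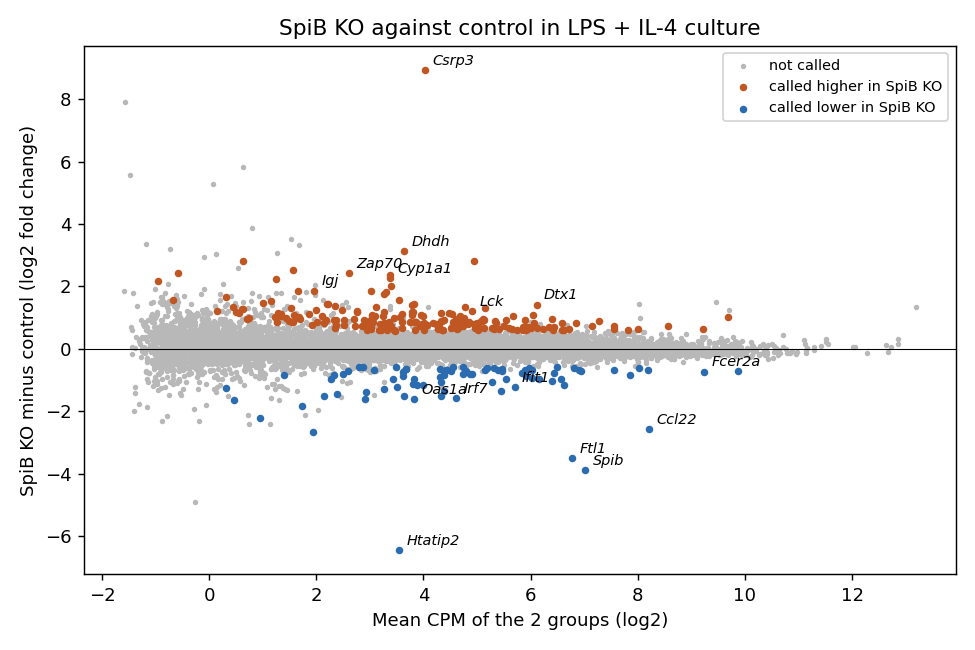
Each point is 1 of the 11984 members, with the log2 of the mean CPM of the 2 groups on the x axis and the log2 fold change of SpiB KO against control on the y axis. The 202 genes called higher are orange and the 83 called lower are blue; Csrp3 and Htatip2 lie at the extremes at 8.94 and -6.46, and most called genes lie within 2 log2 units of 0.

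Interferon-stimulated genes were lower as a group in SpiB KO. The list, like the others here, was chosen with earlier results of these data known. All 23 genes of the list were members and all 23 had a lower mean in SpiB KO. Of these, 13 were called lower, against 0.667% of all genes tested, and 0 higher. The median log2 fold change of the list was -1.26, beside -0.00 over all members. By adjusted p alone 18 of 23 were lower, against 1.48% of genes tested, and with the replicate block 21 were. The count of 13 was the same with DESeq2, with voom on quantile-normalized values and with the block, but it fell to 8 without SpiB KO replicate 1, and it was 12, 9 and 9 without the other libraries.

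Oas1a, which makes the 2-5A signal that activates RNase L, fell from 19.7 and 23.2 in control to 6.996 and 7.06 in SpiB KO (log2 -1.61, SE 0.15, adjusted p 0.00122). Irf7, the interferon regulatory factor that amplifies type I interferon production, fell from 38.0 and 35.4 to 12.1 and 12.4 (log2 -1.58, SE 0.16, adjusted p 0.00171). Rtp4, a chaperone protein that interferon induces, fell from 19.2 and 17.8 to 6.70 and 6.26 (log2 -1.51, SE 0.15, adjusted p 0.00159). In each of these the lowest control library was over 2 times the highest SpiB KO library. Usp18, which takes the ubiquitin-like ISG15 off proteins, fell from 9.85 and 12.6 to 3.47 and 4.04, and Oasl2, an OAS-like protein, from 21.7 and 22.4 to 9.39 and 10.3. Ifit1, which binds viral RNA lacking the normal cap methylation, fell from 64.8 and 80.8 to 29.7 and 32.6 (log2 -1.23, SE 0.17, adjusted p 0.0067). Cxcl10, a chemokine for CXCR3-bearing cells, fell from 7.87 and 7.57 to 3.06 and 2.53. The smaller falls included Isg15, from 99.7 and 119 to 64.1 and 63.4 (log2 -0.78), and Bst2 (tetherin), from 69.0 and 90.9 to 52.3 and 47.0 (log2 -0.69, adjusted p 0.0515). The call of Bst2 was lost without control replicate 2 and without either SpiB KO library.

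Factors that carry the interferon signal are also in the list. Stat2 (log2 -0.05, adjusted p 0.942) and Irf9 (log2 -0.17, adjusted p 0.472) did not pass the test. The receptor gene Ifnar1 lay at 76.8 and 62.9 in control and 85.7 and 82.0 in SpiB KO (log2 0.27, adjusted p 0.311), and Ifnar2 did not pass either (log2 0.20). Ifnb1, which encodes interferon beta, had 1 and 6 counts in the control libraries and 0 and 0 in SpiB KO, too few for a fold, and Ifng had 0 and 0 against 3 and 1. Irf3, a factor that TLR4 signals activate and that lies 465.6 kb from Spib, stood at 68.2 and 71.3 in control and 53.7 and 53.3 in SpiB KO (log2 -0.38, SE 0.08, adjusted p 0.0402), under the fold for a call. Irf3, Stat2, Irf9, Ifnar1, Ifnb1 and Ifng were chosen after their values were seen. The part of Irf3 in the falls of the list was not tested.

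**Figure D2:**
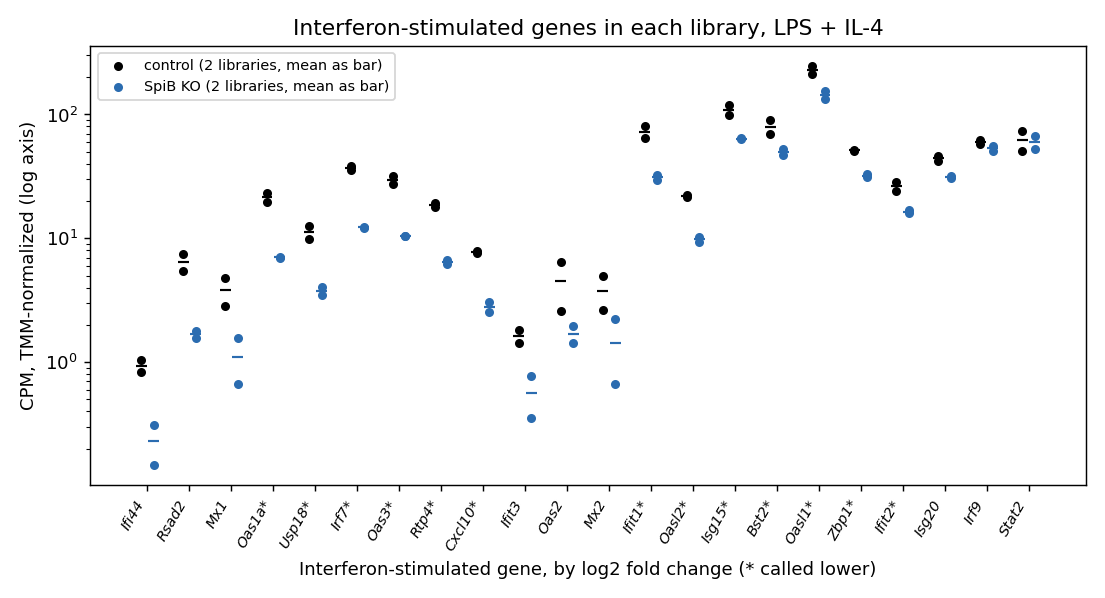
Here 22 of the interferon-stimulated genes are ordered by log2 fold change on the x axis, with TMM-normalized CPM in each of the 4 libraries on a log y axis (black for control, blue for SpiB KO, short bars for the means of 2 libraries) and an asterisk for the 13 called lower. The SpiB KO points lie under the control points for 21 of them, while the 2 groups of Stat2 overlap.

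Promoters of the list are shown because interferon acts through a short repeat, the interferon-stimulated response element, whose core is searched here as GAAANNGAAA on both strands. The sequences are the last 120 bases before the first RefSeq start site listed for the gene (GRCm38.p6), 5′ to 3′ on the strand of the gene, with matches of that core in capitals. The 4 genes were called lower and hold the core in these bases. Oas1a lies at chr5:120907526-120907645 on the minus strand, Ifit1 at chr19:34640769-34640888 on the plus strand, Isg15 at chr4:156200819-156200938 on the minus strand and Oas3 at chr5:120777660-120777779 on the minus strand.
Oas1a: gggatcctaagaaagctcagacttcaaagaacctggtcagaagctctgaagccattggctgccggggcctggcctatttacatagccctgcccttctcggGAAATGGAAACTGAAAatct
Ifit1: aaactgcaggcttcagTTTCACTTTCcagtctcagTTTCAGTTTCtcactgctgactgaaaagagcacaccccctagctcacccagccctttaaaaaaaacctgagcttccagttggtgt
Isg15: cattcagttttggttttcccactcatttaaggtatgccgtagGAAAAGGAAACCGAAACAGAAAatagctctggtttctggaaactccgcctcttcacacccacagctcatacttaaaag
Oas3: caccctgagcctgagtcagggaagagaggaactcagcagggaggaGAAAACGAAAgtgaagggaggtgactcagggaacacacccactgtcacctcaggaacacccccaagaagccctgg
The core lies on the gene's own strand in Oas1a, Isg15 and Oas3 and on the other strand in Ifit1, and overlapping matches run together in Oas1a and Isg15.

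Over windows of 300 bases around the start, the core was found in 9 of the 16 list genes with a promoter in the table (56.2%) and in 14 of 62 genes called lower (22.6%). Outside the list it was found in 8 of 52 genes called lower (15.4%), which were Ifih1, Gbp2, Gbp2b, Gm12250, Trim30a, Ifitm3, Igf2bp3 and Rcn3. Of the genes called higher 2 of 145 held it (1.38%), namely Fcrla and Flt3l, beside 3.16% of the 9053 members with a promoter and 3.49% of all 27025 promoters in the table. The purine-rich ETS letters GAGGAA, which can share bases with the core, were in 30.6% of the genes called lower, 32.4% of those called higher and 26.4% of members (28.3% of all promoters). With the letters AGGAAG the shares were 30.6%, 40.0%, 33.2% and 35.1%. Ccl22 and Fcer2a held no match of the interferon core in their windows. Nor did Irf7, Ifit2, Oasl1, Oasl2 and Isg20, which are in the interferon list.

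Other genes that interferon is known to induce were among the 70 called lower outside the list, chosen here after their values were seen. Ifih1 and Dhx58 encode the RNA sensors MDA5 and LGP2. Ifih1 fell from 139.8 and 155 to 91.7 and 92.3 (log2 -0.68), and Dhx58 from 62.2 and 60.4 to 31.98 and 30.9 (log2 -0.96, SE 0.10, adjusted p 0.00161). Ifitm3, a membrane protein that blocks viral entry, fell from 4.75 and 5.59 to 1.49 and 1.38 (log2 -1.85). Cmpk2, Xaf1, Herc6, Trim30a, Lgals3bp and the guanylate-binding protein genes Gbp2, Gbp2b and Gbp9 were called lower as well, although Gbp2 and Gbp2b are similar in sequence and could share reads.

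Secreted factors moved in both directions. Of 15 members of the list of cytokines and chemokines, 4 were called lower (0.667% of all genes tested) and 2 higher (1.62%), and the median was 0.01. With the replicate block these were 5 and 3. Ccl22, a ligand of the T cell receptor CCR4, showed the largest fall among called genes off chromosome 7: it went from 461 and 556 in control to 85.5 and 83.9 in SpiB KO (log2 -2.59, SE 0.36, adjusted p 0.00702). Ccl5 fell from 6.70 and 6.33 to 2.41 and 2.13 (log2 -1.50), and Ebi3, a subunit shared by IL-27 and IL-35, from 73.6 and 82.3 to 41.7 and 44.4 (log2 -0.86, adjusted p 0.0184). Cxcl10, described above, was the fourth. Ccl22, Ccl5, Cxcl10 and Ebi3 were called in each alternative fit at the same thresholds, each library left out included. At a fold over 2, Ebi3 with its log2 of -0.86 is not called. The 2 called higher, named after their values were seen, were Il10, from 7.09 and 6.62 to 11.7 and 12.0 (log2 0.79, adjusted p 0.0479), and Ccl4, from 1.94 and 2.27 to 4.65 and 3.91 (log2 1.02, adjusted p 0.0443). Tnf (log2 -0.29, adjusted p 0.307) and Il6 (log2 -0.40, adjusted p 0.447) did not pass the test.

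Of 8 members of the list of T and NK cell markers, 4 were called higher (1.62% of all genes tested) and 0 lower, with a median of 0.58. Zap70, the kinase that docks on the T cell receptor chains, rose from 2.03 and 1.82 to 9.62 and 10.8 (log2 2.42, SE 0.16, adjusted p 0.000154). Lck, the SRC family kinase that acts ahead of it, rose from 18.3 and 17.9 to 40.8 and 43.2 (log2 1.21, SE 0.09, adjusted p 0.000337). Cd2, an adhesion receptor, rose from 17.2 and 17.9 to 28.9 and 27.2 (log2 0.68, adjusted p 0.00867). Prf1, which encodes perforin, was higher at 2.54 and 3.37 against 1.12 and 1.01 (log2 1.46, adjusted p 0.0892), but its call was lost with voom and without control replicate 2 or either SpiB KO library. Cd8b1 went the other way, from 1.17 and 0.648 to 0.147 and 0.222, and was not called because its mean RPKM was under the threshold. It was a member through the control libraries only.

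Among the listed markers of T and NK cells, Thy1 was well above 0 and was not called. It lay at 39.6 and 30.4 CPM in control and 53.6 and 43.2 in SpiB KO, scaled to library totals. Gzmb had 0 and 0 counts in control and 27 and 2 in SpiB KO, and Gzma had 0 and 1 against 12 and 2. Several other markers were at or near 0. Cd3e had 0, 0, 1 and 0 counts in control 1, control 2, SpiB KO 1 and SpiB KO 2, Cd3d had 0, 0, 6 and 3, Cd3g had 0, 0, 4 and 0, Nkg7 had 0, 0, 1 and 0, and Cd4 and Ncr1 had none in any library. Summed over all 20 listed markers, of which 12 were below the filter and 2 at 0 in all libraries, the level was 83.1 and 71.1 CPM in control and 140.9 and 129.4 CPM in SpiB KO, scaled to library totals. Thy1, Lck and Cd2 made up the largest parts of this sum in each library. In bulk RNA, more cells of a type and more RNA per cell cannot be told apart.

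Markers of other cell types were summed in the same way. The 21 macrophage and myeloid markers in the table summed to 23.5 and 15.3 CPM in control and 27.5 and 27.5 in SpiB KO; 8 of them were at 0 in all 4 libraries, among them Lyz2, Cd14 and C1qa, and of the 6 that were members 0 were called. The 17 listed pDC markers summed to 333.8 and 348.7 CPM in control and 292.7 and 301.7 in SpiB KO, and Siglech had at most 1 count in a library. Of the 9 pDC markers that were members, 2 were called lower, beside 0.667% of all genes tested, and 2 higher, beside 1.62%. Those lower were Irf7 and Bst2, which are also in the interferon list. Those higher were Atp1b1 (log2 0.92) and Pltp (log2 0.88), and Pltp lost its call in 3 of the 4 fits that left out a library.

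Of 11 members of the list of marginal zone B cell markers 3 were called higher (1.62% of all genes tested) and 1 lower (0.667%), with a median of 0.29. Dtx1, a ubiquitin ligase induced by NOTCH2, rose from 45.9 and 29.8 to 90.6 and 110.3 (log2 1.42, SE 0.21, adjusted p 0.00833). Myof, a membrane repair protein, rose from 9.90 and 5.77 to 21.6 and 19.5 (log2 1.43, adjusted p 0.0193). S1pr1, the sphingosine phosphate receptor that guides lymphocyte exit, rose from 53.7 and 30.4 to 81.2 and 97.3 (log2 1.10, adjusted p 0.0369), a call lost without SpiB KO replicate 2. In all 3 the control libraries stood well apart from each other, with replicate 1 the higher. Cd36, a scavenger receptor, lay at 276 and 316 in control and 160.1 and 169 in SpiB KO (log2 -0.85, adjusted p 0.109), but it was not called with DESeq2 (adjusted p 0.162) and was called in 1 of the 4 fits that left out a library. By adjusted p alone 3 of the marginal zone list were higher and 1 lower, beside 3.65% and 1.48% of genes tested. Of 12 follicular B cell markers, Fcer2a was called lower (beside 0.667% of all genes tested) and Cd55 higher (beside 1.62%). The median of this list was 0.25, with 10 of 12 genes at a higher mean. By adjusted p alone 5 of the 12 were higher and 1 lower. Cd55 changed by log2 0.95 (adjusted p 0.0717) and lost its call in 3 of the 4 fits that left out a library. With the replicate block 3 of the list were called higher.

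Of the 34 BCR signalling genes, all members, 1 was called, which is a share near the 2.29% of all genes tested. Blk, a SRC family kinase, rose from 68.1 and 56.9 to 94.2 and 106.9 (log2 0.69, adjusted p 0.0322), and it was not called without control replicate 2 or SpiB KO replicate 2. The list's median was 0.13, with 26 of 34 genes at a higher mean in SpiB KO, and with the replicate block 3 were called higher. Btk (log2 0.07, adjusted p 0.831) and Blnk (log2 0.15, adjusted p 0.480) did not pass. Among genes chosen after their values were seen, the immediate early gene Egr2 rose from 7.65 and 7.56 to 22.4 and 17.6 (log2 1.40, SE 0.14, adjusted p 0.00171). Egr3 (log2 0.74), Nr4a1 (log2 1.203), Nfatc2 (log2 0.87) and the inhibitory receptor gene Pdcd1 (log2 1.36, adjusted p 0.00159) were called higher too. Cyp1a1, a classical target of the aryl hydrocarbon receptor, rose from 2.68 and 4.35 to 19.1 and 15.6 (log2 2.26, adjusted p 0.00273), and Ahr itself, named after its values were seen, was called higher at log2 0.85.

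IL-4 responses moved in a mixed way. Of 15 members of the IL-4 and STAT6 list, 2 were called lower (Ccl22 and Fcer2a, beside 0.667% of all genes tested) and 2 higher (beside 1.62%), with a median of 0.23. Socs3, a feedback inhibitor of cytokine receptors, rose from 18.7 and 15.2 to 32.3 and 28.1 (log2 0.85, adjusted p 0.0193), a call lost without control replicate 2. Gfi1, a transcriptional repressor, was called higher at low levels (log2 0.998, adjusted p 0.112), but not in the fit of the 4 libraries alone, with voom or without 3 of the 4 libraries. Il2ra (CD25) was the single call among 17 cytokine receptors, beside 2.29% of all genes tested. It was higher at 82.5 and 66.0 against 40.4 and 55.5 (log2 0.63, adjusted p 0.132), and its call was lost in 3 of the 4 fits that left out a library.

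Among immunoglobulin genes, chosen after their values were seen, those of the heavy chain constant regions split. Ighg1 rose from 129 and 152 to 251 and 221 (log2 0.75, adjusted p 0.00859) and Ighg3 from 8.17 and 3.83 to 15.99 and 18.5 (log2 1.56, adjusted p 0.0385). Ighe fell from 31.2 and 28.9 to 14.7 and 8.57 (log2 -1.34, adjusted p 0.0135) and Ighg2b from 3.76 and 3.02 to 1.95 and 1.82 (log2 -0.83, adjusted p 0.126). The counts do not separate germline transcripts, which precede switching, from those of switched cells, and constant region genes resemble each other. Igj, the joining chain of secreted IgM, was the single call among 19 members of the plasma cell list, beside 2.29% of all genes tested. It rose from 2.12 and 1.35 to 5.88 and 6.22 (log2 1.86, SE 0.25, adjusted p 0.00598). Prdm1 (log2 0.20, adjusted p 0.508) and Xbp1 (log2 0.22, adjusted p 0.302) did not pass.

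No gene was called in 9 of the lists: other ETS factors (13 members), TLR sensing (20), NF-kB (12), survival and costimulation receptors (9), class switching (12), myeloid markers (6), cell cycle (26), ER protein processing (30) and MHC class II presentation (12). With 2.29% of all genes tested called, 0 calls in lists of 6 to 30 members is near that share. Small shifts remained: 11 of 12 MHC class II genes were higher (median 0.30), while 11 of 12 class switching genes (median -0.17) and 23 of 26 cell cycle genes (median -0.13) were lower. With the replicate block 7, 5 and 3 of these passed the adjusted p in those directions. Cd40, at 187 and 208 in control against 149 and 145 in SpiB KO, passed the adjusted p (0.0969) but not the fold (log2 -0.43, SE 0.11). Tlr4, the receptor for LPS, lay at 19.1 and 23.7 against 18.5 and 18.7 (log2 -0.21, SE 0.12, adjusted p 0.530), and Tlr9 at log2 0.04 (adjusted p 0.948). Tnfrsf13c, the BAFF receptor, lay at log2 -0.00 (SE 0.09, adjusted p 0.999). The regulators Pax5 (0.10), Bach2 (0.11), Irf4 (0.11) and Bcl6 (0.34, all log2) did not pass, and Spib was the single call among 20 regulators of B cell identity. With the replicate block 1 gene each was called higher among the B cell identity regulators and the myeloid markers, and 1 lower each in the plasma cell and cytokine receptor lists. The genes described as PU.1 or SpiB targets were 11, of which Fcer2a was called lower (beside 0.667% of all genes tested) and Grap2 higher (beside 1.62%). Grap2, an adaptor protein, changed by log2 0.61 (SE 0.10, adjusted p 0.0127), and its call was lost without control replicate 2.

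**Figure D3:**
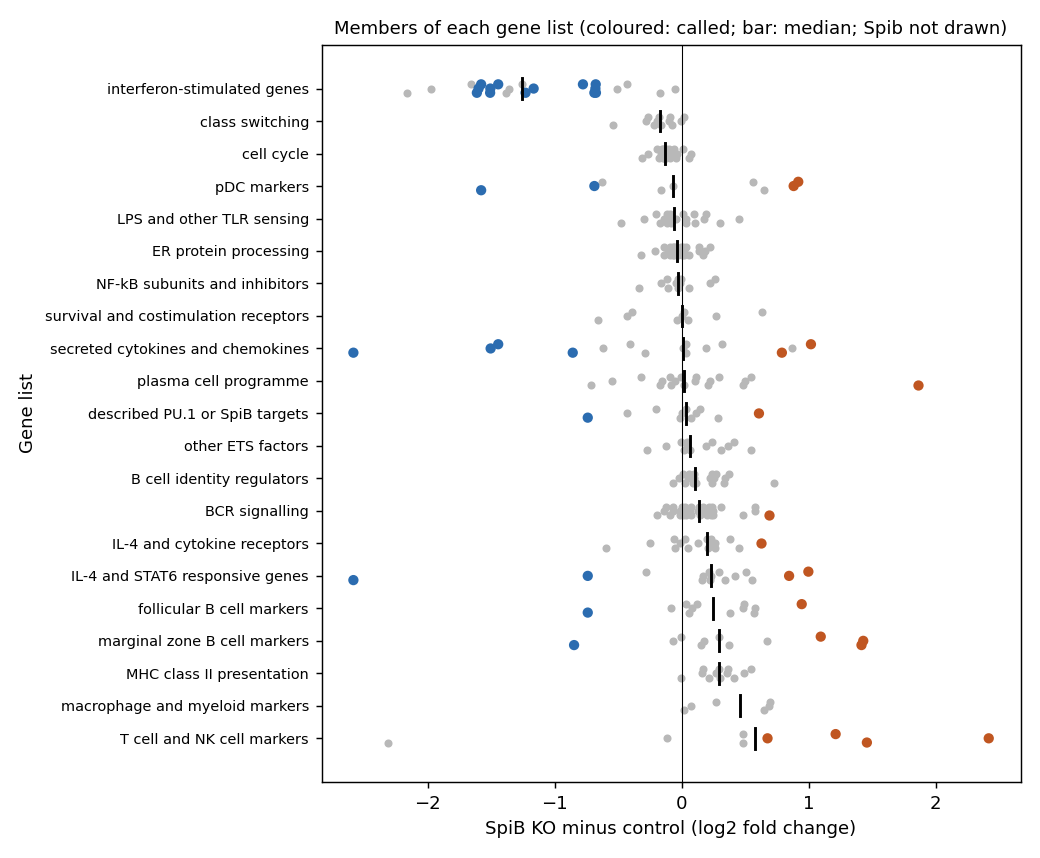
Each row is 1 gene list and each point a member of it by its log2 fold change of SpiB KO against control on the x axis, coloured orange or blue where called higher or lower, with a black bar at the median (Spib is not drawn but counts in the median of its list). The interferon-stimulated genes have their median at -1.26, and the medians of the other lists drawn lie between -0.17 and 0.58 (the list of the targeted genes and their relatives is not drawn).

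Calls were counted by distance from Spib, on chromosome 7. Within 1 Mb of Spib 13 of 62 other members were called (20.97%), from 1 to 5 Mb 4 of 40 (10.0%), and from 5 to 10 Mb 3 of 24 (12.5%), beside 243 of 10848 members on other chromosomes (2.24%). From 10 to 20 Mb the share was 3.80% (6 of 158), from 20 to 40 Mb 1.49% (3 of 202) and beyond 40 Mb 2.55% (10 of 393). Csrp3, Htatip2, Snord33 and Snord34 were members through the libraries of 1 group only, so their groups had to differ, and their values are given as a description. They are counted in the shares above: Snord33 and Snord34 within 1 Mb, Csrp3 from 1 to 5 Mb and Htatip2 from 5 to 10 Mb. Those shares are therefore a description too. Csrp3, a muscle LIM protein gene 4.30 Mb away, had 1 and 4 counts in control and 2179 and 660 in SpiB KO, a ratio of pooled counts per library size of 541 (exact 95% interval for counting error 232 to 1670). Htatip2, at 5.23 Mb, went from 544 and 1261 counts in control to 18 and 4, which was 86.0 times lower in SpiB KO (interval 56.6 to 138). Ftl1, the ferritin light chain gene at 925.9 kb, fell from 201 and 202 CPM to 18.4 and 17.05 (log2 -3.50, SE 0.11, adjusted p 3.19e-07), although ferritin genes have near-identical copies that could share reads.

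The calls near Spib went both ways. Dhdh, a dehydrogenase gene at 940.9 kb, rose from 3.20 and 2.07 to 23.3 and 21.3 (log2 3.13, adjusted p 0.000105), and Mybpc2, a myosin-binding protein gene beside Spib, from 3.85 and 2.93 to 19.7 and 14.8 (log2 2.38, adjusted p 0.00273). Rcn3, Dkkl1 and Fuz were lower (log2 -2.22, -1.64 and -0.59), while Gm15545, Fcgrt, Flt3l and Nucb1 were higher (log2 2.25, 1.25, 0.59 and 0.63). Snord35b, Snord34 and Snord33, small nucleolar RNAs within ribosomal protein genes whose reads they may share, were higher at low levels. The calls of Fuz, Flt3l, Snord33 and Snord34 were lost in at least 2 of the 4 fits that left out a library, and that of Fuz also with the replicate block. Both SpiB KO and DKO carry the Spib-/- allele, so loss of SpiB and differences linked to that stretch of chromosome 7 cannot be told apart. Of the 13 interferon-stimulated genes called lower, Irf7 is on chromosome 7, 96.7 Mb from Spib, and 12 are on other chromosomes.

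**Figure D4:**
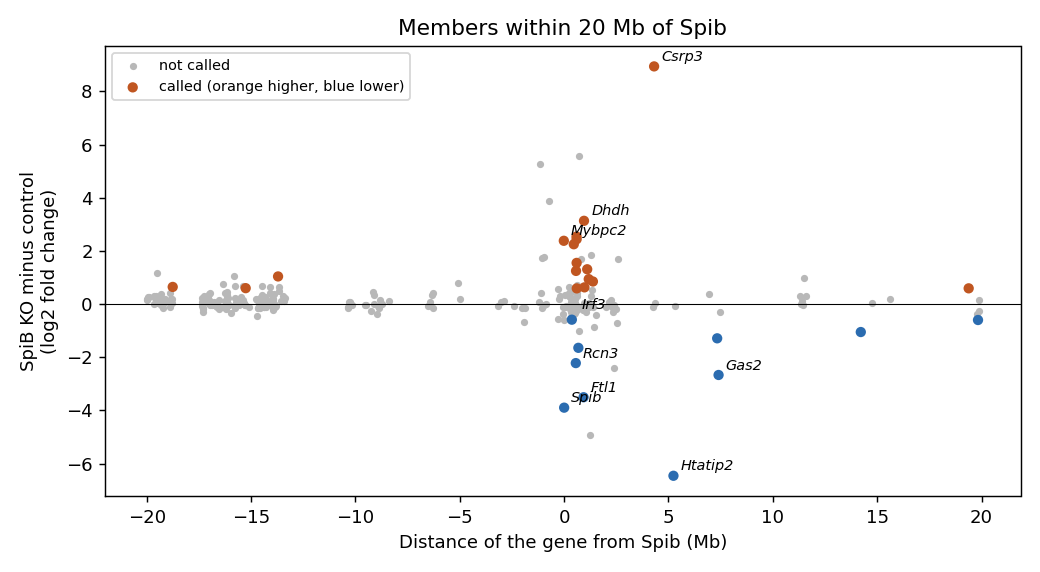
Members within 20 Mb of Spib are placed by their distance from it on the x axis (Mb, negative before it) and by the log2 fold change of SpiB KO against control on the y axis, with called genes in orange (higher) or blue (lower). The called genes crowd within about 1 Mb of Spib, and Csrp3 and Htatip2 stand out at 4.30 and 5.23 Mb.

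Near the other engineered genes 1 call was made. Mybpc3, whose annotated gene lies 2.36 kb from Spi1, had 4 and 11 counts in control and 55 and 18 in SpiB KO. It was a member through the SpiB KO libraries only, so these groups had to differ. It met the RPKM threshold through the libraries of mice lacking PU.1, where it stood at 291 to 347 CPM. Of the 12 members within 500 kb of Fcer2a, 0 were called.

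The loss of SpiB was also measured as DKO over PU.1 cKO, in cells with the floxed Spi1 gene and Cre. Spi1 transcripts stood at 44.2 and 41.2 in PU.1 cKO and 63.9 and 58.8 in DKO, so transcripts counted over the whole gene were still present. The deleted part of the gene cannot be told apart from the rest in counts over whole genes. From read coverage, the paper reports that the floxed exon was fully excised with CD40L + IL-4 and about as efficiently with LPS + IL-4. In that comparison 1009 of 12445 genes were called (8.11%), 712 higher (5.72%) and 297 lower (2.39%). Of the 202 genes called higher in SpiB KO against control, 135 were called higher there as well and 6 lower, and 181 had the same sign. Of the 83 called lower, 50 were called lower there and 1 higher, and 74 had the same sign. The number called in both in the same direction, 185, became 365 and 83 without control replicate 1 and 2, and 122 and 93 without SpiB KO replicate 1 and 2. Across the 11104 members off chromosome 7 the log2 fold changes of the 2 comparisons correlated at r = 0.50, given as a description since genes are not independent.

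**Figure D5:**
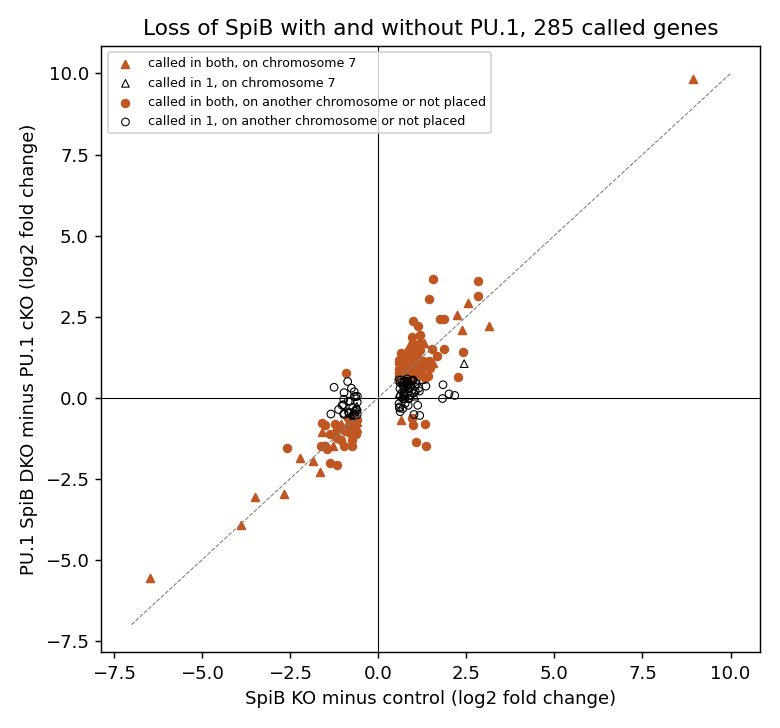
Each of the 285 genes called in SpiB KO against control is placed by that log2 fold change on the x axis and by the log2 fold change of DKO against PU.1 cKO on the y axis, filled where called in both comparisons and open where called in the first only (triangles for chromosome 7, a dashed line for equal values). Most points, 255 of 285, lie in the lower left or upper right.

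The fall of interferon-stimulated genes was seen in both comparisons. In DKO against PU.1 cKO 12 of the 23 genes were called lower, beside 2.39% of all genes tested, and 0 higher, beside 5.72%. The median of the list was -0.90. By adjusted p alone 16 of the 23 were lower and 1 was higher. Oas1a lay at 7.33 and 8.99 in PU.1 cKO and 2.94 and 2.80 in DKO (log2 -1.50, adjusted p 0.000813). Rtp4 went from 3.97 and 4.77 to 1.57 and 1.49 (log2 -1.50) and Irf7 from 7.41 and 10.2 to 3.91 and 4.58 (log2 -1.05). Zbp1 and Ifit2, called lower in SpiB KO, did not pass there (log2 0.18 and 0.03, adjusted p 0.418 and 0.889), and their difference between the comparisons did not pass either (adjusted p 0.158 and 0.188). Ccl22 went from 90.2 and 65.8 to 14.3 and 39.2 (log2 -1.55, adjusted p 0.0176), Lck from 34.6 and 33.4 to 60.6 and 63.3 (log2 0.86) and Blk from 62.6 and 48.8 to 97.6 and 103 (log2 0.85). Csrp3, Htatip2 and Ftl1 were called with the same signs (log2 9.82, -5.57 and -3.07).

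The effect of SpiB loss was then compared between cells with and without PU.1. The interaction passed an adjusted p of 0.15 in 184 genes tested (1.48%), 33 of the 285 called genes among them, and in 1284 with the replicate block. The 285 were selected in control and SpiB KO libraries that enter the interaction, so a higher share among them is partly built in. Fcer2a fell further without PU.1, from 620.2 and 495 to 215 and 182 (log2 -1.49), and its interaction was -0.75 (SE 0.18, adjusted p 0.136). Zap70 rose less, from 24.2 and 18.7 to 56.0 and 58.1 (log2 1.41, interaction -1.01, adjusted p 0.0897). Grap2 was higher in SpiB KO but at 45.5 and 42.2 in PU.1 cKO against 37.2 and 35.0 in DKO (interaction -0.89, adjusted p 0.0230). The genes called in opposite directions were Ccr6, Ptgs1, Hs3st1, Slfn1, Mapk12, Axl and Igf2bp3, named after their values were seen. Ccr6, a chemokine receptor, rose from 18.2 and 13.3 to 36.0 and 42.4 in SpiB KO against control and went from 13.4 and 12.5 to 7.22 and 7.63 in DKO against PU.1 cKO (interaction -2.13, adjusted p 0.00414).

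The same genotypes were compared in naive cells and in CD40L + IL-4 cultures. In naive cells 794 of 12500 genes were called (6.35%), 432 higher (3.46%) and 362 lower (2.9%). Of the 285 genes, 268 were tested in naive cells, 43 were called there in the same direction and 8 in the opposite one. The difference of the effects passed for 77 of the 268, beside 5.65% of all 13684 genes tested for it. The 268 were selected for their change in LPS + IL-4 libraries that enter this difference, so a higher share among them is partly built in. Interferon-stimulated genes had a median of -0.37 in naive cells, with 19 of 23 at a lower mean, 1 called lower and 2 higher. Irf7 did not pass there (log2 0.01, adjusted p 0.996), and its effect differed from that in LPS + IL-4 by -1.59 (adjusted p 0.0446). Bst2 was higher in naive SpiB KO cells (log2 1.99, adjusted p 0.000223), the opposite of its fall in culture (difference -2.68, adjusted p 2.17e-05). The 9 pDC markers had a median of 1.99 in naive cells with 8 called higher, beside -0.07 in LPS + IL-4, and the difference passed for 7 of the 9. Lck (log2 0.22, adjusted p 0.292), Cd2 (log2 -0.24, adjusted p 0.276) and Cd55 (log2 -0.40, adjusted p 0.103) did not pass in naive cells, and their effects differed from those in LPS + IL-4 by 0.99, 0.91 and 1.34.

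With CD40L + IL-4 in place of LPS + IL-4, 14 of 12721 genes passed (0.11%), and 47 with the replicate block. Of the 285 genes, 282 were tested there, 249 had the same sign and 11 were called in the same direction. Of the 23 interferon-stimulated genes 16 were tested there, 11 of them with a log2 fold change below 0, with a median of -0.10 and 0 called. Some lay near the filter, such as Rtp4 at 0.70 and 0.73 CPM in control and 0.99 and 0.17 in SpiB KO. Oas1a went from 13.7 and 14.9 to 7.10 and 7.02 (log2 -1.02, SE 0.30, adjusted p 0.699), with an SE of 0.15 in LPS + IL-4. An absence of the fall with CD40L + IL-4 was thus not shown. The difference between the effects of SpiB loss in the 2 cultures passed for 0 of 13684 genes with edgeR (0%), with 421 at an unadjusted p under 0.05 (3.08%), and for 3 with DESeq2. With the replicate block it passed for 4 genes. For Ccl22 a difference was not shown (log2 -1.06 with CD40L + IL-4, adjusted p of its difference 0.99997).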

How the data were processed

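RNA-seq was done on 24 libraries, 2 for each of 4 genotypes at 3 stages, and the 8 LPS + IL-4 libraries were used for the main results. The authors used Subread against GRCm38 and counted reads that mapped to 1 place over RefSeq exons with featureCounts, as raw counts. The deposited counts are whole numbers for 27179 genes. The authors also deposited log2 RPKM per library, after quantile normalization, used here only as a threshold on expression. Genes with an identifier but no symbol (517, 0.114% to 0.273% of counts) stayed in library totals. The protocol on every sample names the CD40L + IL-4 culture, so stages came from titles. The library kit, as named, does not mark strand, so overlapping genes cannot be told apart.

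Genes with 0.5 CPM in 2 of the 8 libraries (12445) were tested together with edgeR 4.0.16 (TMM, quasi-likelihood) in R 4.3.3, with limma 3.58.1 and DESeq2 1.42.0 as alternatives, and p-values were adjusted over all of them. Interactions were fitted in the 8 libraries (with and without PU.1) or all 24 (between stages). Standard errors are the log2 fold change over the root of the F statistic. The 2 libraries of a group are biological replicates as the study describes them, and an exact permutation test of 2 against 2 cannot go below p = 0.333, so none was used. Positions (97.9% of members) and promoters came from RefSeq tables of GRCm38. The tests were tried on simulated counts first.

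Members and gene lists were chosen with earlier results of these data known. Named genes were Spib, Spi1 and Fcer2a; the 10 largest rises and falls without overlap, and those also called in DKO against PU.1 cKO; called genes within 1 Mb of Spib or 500 kb of Spi1 and Fcer2a; up to 4 called genes a list; and a fixed set of receptors and regulators. Some genes are not reported here. All others were named after their values were seen. Intervals of count ratios cover counting error only. Deviations of same-numbered libraries from their genotype means correlated at 0.386 to 0.514 over 6 genotype pairs (control with SpiB KO 0.386). Neither labels nor methods state a pairing by replicate number. The main tests left it out, and it entered only as the replicate block of an alternative fit.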

Additional observations from a re-analysis of the deposited data

Results flagged for a closer look

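Genes were listed here when the test of the difference between 2 effects of SpiB loss passed an adjusted p of 0.15 among the genes named by rule. Most of these were picked for their change in the LPS + IL-4 libraries of SpiB KO and control, which enter both differences. Passing, and the sign of the difference, are thus partly built in. Between cells without and with PU.1 in LPS + IL-4, the effect on Mybpc3 differed by -2.10 (SE 0.289, log2, adjusted p 0.0139), with control and SpiB KO libraries at 4 to 55 counts and membership through SpiB KO only. The effects on Grap2 (-0.89, adjusted p 0.0230), Zap70 (-1.01, adjusted p 0.0897), Cyp1a1 (-1.62, adjusted p 0.108), Fcer2a (-0.75, adjusted p 0.136) and Il2ra (-1.06, adjusted p 0.139) were lower without PU.1 as well.

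Between LPS + IL-4 and naive cells, the effect was lower in culture for Bst2 (-2.68, adjusted p 2.17e-05), Gm20746 (-2.43, adjusted p 0.00243), Atp1b1 (-1.53, adjusted p 0.0263) and Irf7 (-1.59, adjusted p 0.0446). It was higher in culture for Nucb1 (0.86, adjusted p 0.00559), Lck (0.99, adjusted p 0.00982), Grap2 (0.97, adjusted p 0.0131), Fcer2a (0.89, adjusted p 0.0363), Cd55 (1.34, adjusted p 0.0496), Cd2 (0.91, adjusted p 0.0629), Ftl1 (1.6, adjusted p 0.122), Blk (0.72, adjusted p 0.122) and Zap70 (0.95, adjusted p 0.136). The gene Gm20746, on chromosome 10, stood at 7.65 and 7.57 CPM in control and 42.7 and 65.7 in SpiB KO cultures. The causes of these differences were not tested.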

How the results depend on the processing

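When a library was left out, the 285 calls ranged from 149 to 596, the 202 higher from 91 to 497, the 83 lower from 50 to 99, the 13 interferon-stimulated genes from 8 to 12, the 185 called in both comparisons from 83 to 365, and the 184 interactions from 58 to 790. An adjusted p under 0.05 gave 179 calls, 119 higher, 117 in both comparisons, 58 interactions, 7 calls in CD40L + IL-4, 436 in naive cells and 251 differences between LPS + IL-4 and naive cells. A fold over 2 gave 99 calls, 70 higher, 29 lower, 8 interferon-stimulated genes, 57 in both comparisons and 307 for DKO against PU.1 cKO. Without the RPKM threshold the last count was 1569 and that in naive cells 1203. Interactions numbered 376 with DESeq2 and 779 with no filter on low counts. With the replicate block they numbered 1284, the calls in CD40L + IL-4 became 47, and the differences between stages 2329 against naive and 4 against CD40L + IL-4. The causes were not tested. The block changed the call of 1 of 64 genes named by rule, Fuz.

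The direction turned only in genes that were not called. Left-out libraries moved Bcl6 between -0.052 and 0.79, Btk between -0.050 and 0.21, Irf4 between -0.027 and 0.27, Pax5 between -0.032 and 0.24, Tlr9 between -0.15 and 0.24 and Tnfrsf13c between -0.066 and 0.074 (log2). Tnfrsf13c was at 0.0050 with no filter on low counts, 0.010 in the 4 libraries alone and 0.039 with voom. Of the 64 genes, 62 kept both their direction and their side of the threshold with DESeq2, 58 with voom and 45 without control replicate 2. Genes under about 3 counts a library could not be measured at these depths.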
